A study of Saccharomyces cerevisiae YPS1009 with 8 samples.

Results

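The 5′ leader of an mRNA is the stretch between its cap and the start codon of the protein, and 911 leaders with reads in a ribosome profiling experiment on wild yeast are described here. Ribosome profiling sequences the mRNA fragments that ribosomes protect from nuclease, so a read marks where a ribosome stood. Each of the 6536 rows of the count tables holds 1 gene, and gives the number of read 5′ ends at each nucleotide (nt) of a stretch that begins at −72 nt, counted from the ATG, and runs 60 nt past the stop codon. The leader window was the 54 positions from −72 to −19 nt, which leaves out the last nucleotides before the ATG, where reads from ribosomes on the start codon begin. A region was selected on measured values, namely 10 or more leader reads summed over the 8 libraries, so the total number of leader reads is a description and not a result. These regions were 13.9% of all rows and held 55156 of the 66598 leader reads (82.8%). Another 3781 rows held 1 to 9 leader reads and 1844 held none. At the threshold, 93 regions had exactly 10 leader reads and 104 rows just outside it had 9, and the rest of those rows held a median of 1034 and 1215 reads.

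The strain was YPS1009, a haploid oak-soil isolate, grown at 30 °C in YPD, a rich medium. The euploid was MATa ho-Δ1 with a NatMX marker on chromosome XII. The Chr12 strain carried a duplication of chromosome XII, the alleles MATa ho-Δ1 his3-Δ, and the markers His3MX6 and NatMX at the same site. Both were sampled in log phase, after 3 generations of growth, and on day 4 of culture, when cells had exhausted glucose, with 2 replicates each. Each strain is a single engineered line, and nothing in the labels says whether replicates were separate cultures, so p-values measure the spread between these libraries only, which may be technical. Libraries held from 211302 reads (euploid day 4 replicate 1) to 6215498 reads (euploid day 4 replicate 2). Reads outside the leaders on chromosome XII made up 7.41% to 13.07% in the euploid and 12.4% to 19.6% in Chr12, and within each phase both Chr12 libraries were above both euploid libraries. The HIS3 row, which a full his3 deletion would empty, held 87 and 75 reads in Chr12 log phase and 21 and 71 at day 4, against 75 and 35 and then 7 and 116 in the euploid. The extent of the his3 allele is not given in the sources used here.

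In the usual course of translation a small ribosomal subunit binds the cap, scans along the leader and starts at the first suitable AUG. Some leaders hold an upstream open reading frame (uORF), whose translation can keep ribosomes from reaching the protein, and a few proteins begin at a codon other than AUG in the leader, which adds residues to their amino end. In yeast the best known case of the first kind is GCN4, whose uORFs tune the amino acid starvation response, and GRS1 and ALA1, which encode the glycyl- and alanyl-tRNA synthetases, are known cases of the second. Leader reads can thus come from uORFs, from extended proteins, or from a neighbouring gene that lies over the same bases.

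The leader window took between 0.295% and 1.79% of all reads of a library. In bulk libraries such as these, fewer cells with a footprint and fewer footprints per cell cannot be told apart. In log phase the shares were 0.451% and 0.394% in the euploid and 0.406% and 0.317% in Chr12 (replicates 1 and 2). At day 4 they were 1.79% and 0.295% in the euploid and 1.01% and 0.421% in Chr12. Both day 4 libraries of replicate 1 stood above all other libraries, and these were the 2 shallowest, with 211302 and 396306 reads. The 95% Wilson intervals, which cover counting error only, were 1.73% to 1.84% for the euploid day 4 replicate 1 library and 0.291% to 0.300% for its replicate 2. The mean was 0.878% ± 0.681 (SD, n = 4) at day 4 and 0.392% ± 0.0555 (SD, n = 4) in log phase, and the difference did not pass a two-sided exact permutation test (p = 0.314, adjusted p = 0.471 over 3 tests, with 0.0286 the smallest p the design allows). The share was higher at day 4 in 3 of 4 comparisons of libraries with the same strain and replicate number. Within replicate 1 the day 4 share was higher by 0.969 percentage points, and within replicate 2 by 0.00259 points. Without euploid day 4 replicate 1 the difference fell from 0.486 to 0.183 points. Chr12 had a mean of 0.538% ± 0.317 and the euploid of 0.732% ± 0.707 (SD, n = 4 each), and this difference did not pass the same test either (exact p = 0.743, adjusted p = 0.743). Its sign differed between replicate numbers, at −0.412 points in replicate 1 and 0.0244 in replicate 2, and without the euploid day 4 replicate 1 library Chr12 was higher by 0.158 points.

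**Figure D1:**
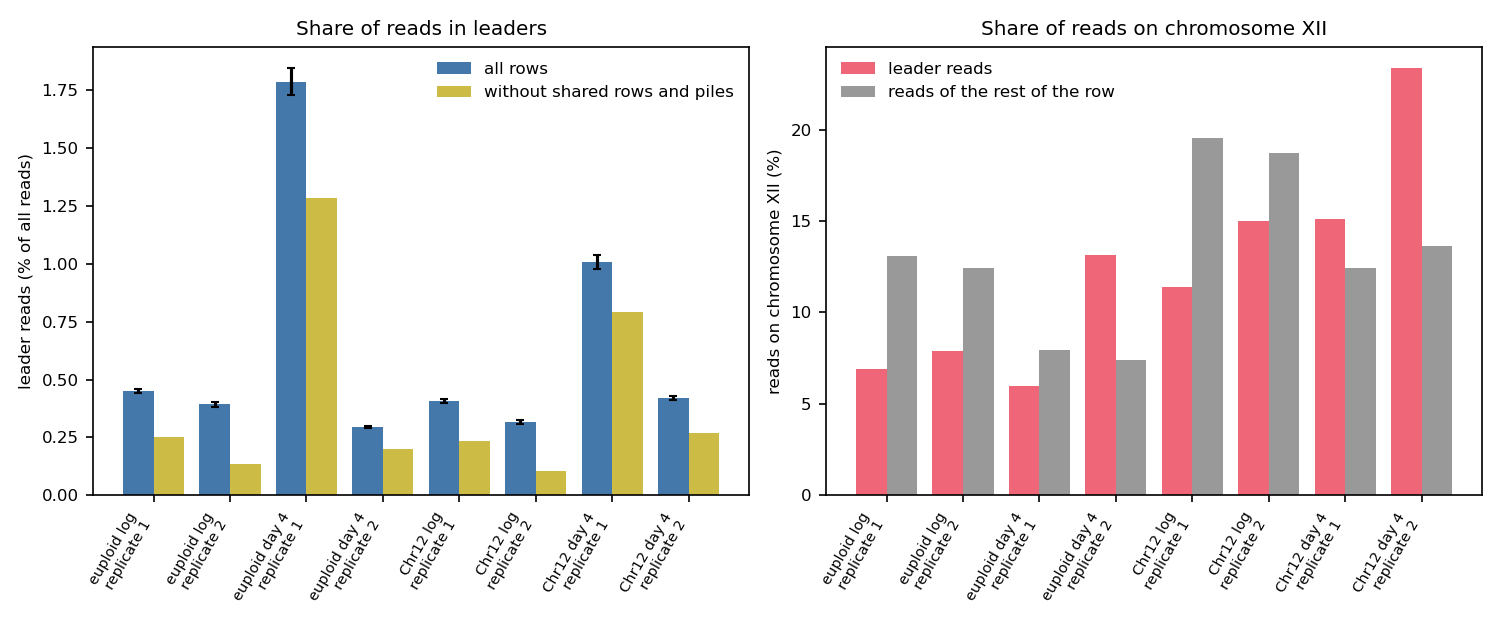
Left, leader reads as a percent of all reads in each of the 8 libraries (blue, with 95% Wilson intervals), and the same without rows that share counts with another row and without regions that hold 90% or more of their reads at 1 position (yellow). Right, the percent of leader reads (red) and of all other reads (grey) that lie on chromosome XII. The euploid day 4 replicate 1 library is highest on the left at 1.79%, and each Chr12 library has a larger chromosome XII share of leader reads than the euploid library of its phase and replicate number.

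For each row the ratio of leader reads to the rest of the row was compared between groups with edgeR's quasi-likelihood test, which gave no call at a false discovery rate (FDR) of 0.05. Of 4679 rows with leader reads and other reads, 0 passed in each of the 5 comparisons (0%), and so 0 of the 911 regions. The comparisons were day 4 against log phase in the euploid and in Chr12, Chr12 against euploid in log phase and at day 4, and the strain difference in the day 4 change, and they share libraries. The smallest adjusted p was 1 in every comparison. At an unadjusted p under 0.05 there were 53, 47, 0, 4 and 1 rows, of which 26, 27, 0, 2 and 1 were regions. DESeq2 also gave 0 calls in each, with 96, 92, 0, 8 and 3 rows at an unadjusted p under 0.05. With either method these counts are below what evenly spread p-values over the 4679 rows would give. Both tests were thus conservative here, and a lack of calls does not show that leader shares were unchanged. With the second count tables XKS1 was called lower at day 4 in Chr12 (adjusted p = 0.0226, edgeR), and with a replicate block YEF3 was called higher there (adjusted p = 0.0453). What follows describes where the reads of the regions lie.

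The regions fell into 3 kinds. In 91 of them, with 17388 leader reads (31.5% of the regions' reads), at least 90% of the leader reads stood at the same counts, library by library, in another row of the tables, so the same reads were scored for both. In 76 regions, with 11148 reads (20.2%), at least 90% of the leader reads began at 1 position, and these are called piles here. The other 744 regions, with 26620 reads (48.3%), are called spread, with a median of 16 leader reads at 6 positions. The highest position still held a median of 45% of the reads of a spread region. The leader made up a median of 20% of the row in shared regions, 4.67% in piles and 1.28% in spread regions, against 0.207% over all rows. In 65 regions the leader held over 50% of the row.

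In 73 of the 91 shared regions the leader reads fell inside the coding part of the other row. Of the 91, 54 had no entry in the R64 gene table, the current reference annotation of the laboratory strain. The other 37 have a position in it, and 26 of them have another gene within the 72 nt before their start codon. The region with the most leader reads of all was a shared one, YLR294C. It held 3123 leader reads, 90% of its row, and its leader repeats counts of the row YLR295C (ATP14, a subunit of the mitochondrial ATP synthase). YDR154C held 1904 leader reads that stand in the row of CPR1, a cyclophilin. The leader of MTC7 held 1574 reads that stand in the row of HYP2, the translation factor eIF5A. In 2 regions, ENA1 and ENA2, sodium pumps encoded by neighbouring near-identical copies, the 168 leader reads and the rest of the rows were the same, and copies cannot be told apart. For these regions a leader read cannot be told from a coding read of the other gene. The regions named from here on are unshared, apart from YLR294C and YLL053C in the account of chromosome XII.

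Chromosome XII carried 97 regions, 10.6% of the regions against 8.27% of the other rows. Of all leader reads, chromosome XII held 6.90% and 7.89% in euploid log phase and 5.98% and 13.2% at day 4, against 11.4% and 15.0% in Chr12 log phase and 15.1% and 23.4% at day 4. Chr12 was higher in 4 of 4 comparisons of matched phase and replicate number, though the ranges overlap across phases. The means were 16.2% ± 5.06 and 8.49% ± 3.22 (SD, n = 4 each), a difference of 7.73 points that did not pass the two-sided exact permutation test (p = 0.0571, adjusted p = 0.171). The difference was 6.81 points within replicate 1 and 8.64 within replicate 2. The unadjusted exact p was 0.0286 (adjusted p = 0.0857 over the 3 tests) with the second count tables, with the window from −60 nt and with each position counted once. It was smaller without the shared rows: YLR294C and YLL053C, whose leader stands in the row of the water channel gene AQY2, lie on chromosome XII, and without all shared rows the difference was 3.49 points (exact p = 0.2).

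The 10 unshared regions with the most leader reads included 6 piles, and most were filled by particular libraries. MMS4 encodes a subunit of the Mus81-Mms4 DNA endonuclease. Its 2222 leader reads all began at −39 nt. They numbered 255 and 838 in euploid log phase and 275 and 782 in Chr12 log phase, while euploid cells at day 4 had 65 and 2 and Chr12 cells had 5 and 0. The log phase libraries of both strains were therefore high and both day 4 libraries of replicate 2 near 0, and the leader held 85.8% of the row.

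XKS1, TGL2, COQ10 and ATG20 were piles of log phase replicate 2. XKS1 encodes xylulokinase. It held 783 leader reads in euploid and 742 in Chr12 log phase replicate 2, 1 and 9 in the log phase libraries of replicate 1, and 3, 0, 3 and 0 in the day 4 libraries. At 1 position, −57 nt, lay 99.1% of them. TGL2, a mitochondrial lipase, held 492 and 321 reads in these 2 libraries and between 1 and 7 in every other, with 98.1% at −45 nt. COQ10, a coenzyme Q binding protein, held 219 and 394, and 10 or fewer elsewhere. ATG20, a sorting nexin, held 113 and 95, and 3 or fewer elsewhere. Together these 4 regions took 28.1% of all leader reads of euploid log phase replicate 2 and 24.7% of Chr12 log phase replicate 2, and 0.272% or less in the other 6 libraries.

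A second set of 7 regions was filled in 3 of the 4 replicate 1 libraries and not in the fourth. COX7 encodes a subunit of cytochrome c oxidase. Its leader held 595 reads in euploid log phase, 167 in euploid day 4, 396 in Chr12 log phase and 5 in Chr12 day 4 of replicate 1, and 1, 0, 4 and 4 in the same groups of replicate 2. Of these, 99.7% began at −67 nt. MET2, homoserine O-acetyltransferase of methionine synthesis, held 448, 181, 379 and 4 in replicate 1 and 1, 6, 1 and 6 in replicate 2, mostly at −45 to −43 nt. The small open reading frame YDR371C-A held 542, 131, 382 and 3 against 4, 1, 2 and 0, and its leader was 99.9% of the row. PFK2 (phosphofructokinase), HXT3 (a hexose transporter), DNF2 (a lipid flippase) and COX11 (a copper chaperone of cytochrome c oxidase) had the same order. These 7 regions took 17.1% of all leader reads in euploid day 4 replicate 1, 22.2% and 16.6% in the log phase libraries of replicate 1, and 0.351% in Chr12 day 4 replicate 1. They took 0.0981% to 0.182% in the replicate 2 libraries. In a further 4 regions 90% or more of the reads came from replicate 1 libraries, including Chr12 day 4. One was SPR6, a gene expressed in sporulation, with 49, 98, 101 and 92 reads in replicate 1 and 0 in each replicate 2 library. The grouping of the 45 unshared regions with 100 or more reads was made after their values were seen.

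**Figure D2:**
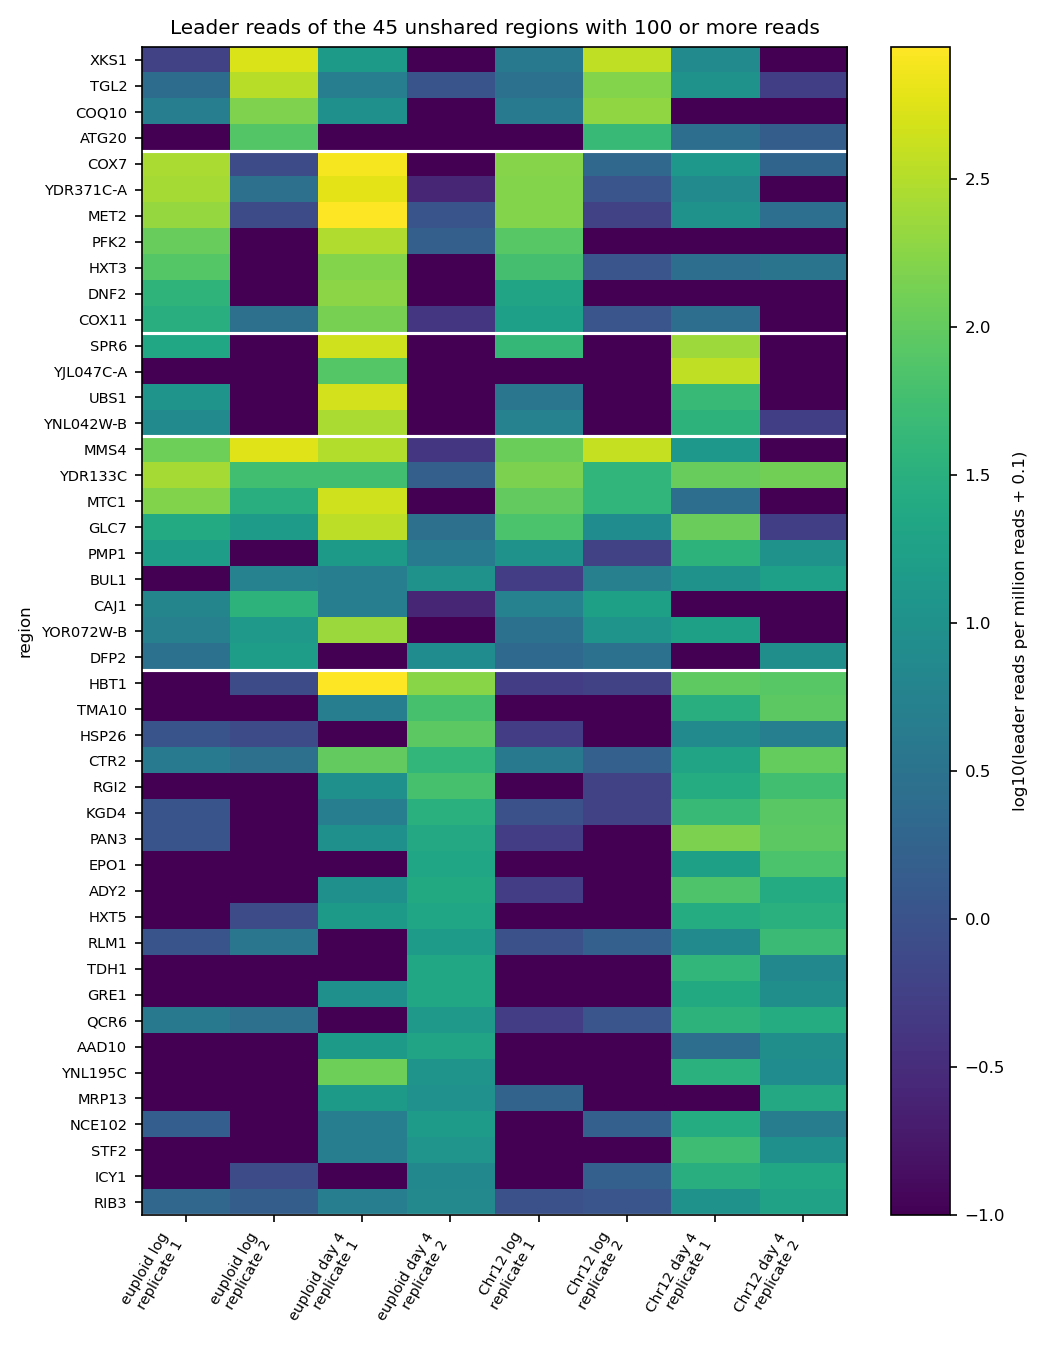
Leader reads scaled to library size (RPM), on a log10 scale with 0.1 added, for the 45 unshared regions with 100 or more leader reads (rows) in the 8 libraries (columns). White lines separate, from the top, regions filled in log phase replicate 2 (4), in replicate 1 except Chr12 day 4 (7), with 90% or more of their reads from replicate 1, including Chr12 day 4 (4), other regions (9) and regions with 90% or more of their reads from day 4 (21).

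Most of the reads that filled the replicate 1 regions were not in the second tables. A second table of counts exists for the replicate 1 libraries only, with 930 to 2851 leader reads where the tables used here held 3777 to 9557. The second tables also held fewer reads in all, 125151 to 1382139 against 211302 to 2354539. COX7 went from 1163 leader reads over the 4 replicate 1 libraries to 1, HXT3 from 348 to 0, PFK2 from 489 to 1, SPR6 from 340 to 1, YDR371C-A from 1058 to 7 and MET2 from 1012 to 14. How the second tables were made is not stated in the sources used here. Of the 76 piles, 60 took 90% or more of their reads from 1 replicate number (27 from replicate 1 and 33 from replicate 2), against 223 of the 744 spread regions. Without the shared rows and the piles, the leader share of reads was 1.29% and 0.201% at day 4 in the euploid, 0.791% and 0.268% at day 4 in Chr12, and 0.107% to 0.251% in log phase, so the 2 shallow day 4 libraries remained the highest.

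Noncoding RNA genes lie at 3 of the 10 unshared regions with the highest leader share among those with 100 or more leader reads. Of 789 unshared regions listed in the R64 gene annotation, 11 have another gene within the 72 nt before their start codon. YJL047C-A has the small nucleolar RNA gene SNR60 there, on the same strand, and YOR072W-B and YNL042W-B each have a tRNA gene there on the same strand. YJL047C-A held 17 and 149 leader reads in euploid and Chr12 day 4 replicate 1 and 0 in every other library, 65.6% of its row. Its 166 reads were 0 in the second tables, and without its highest position the leader was 2.25% of the row. YNL042W-B held 16, 60, 13 and 14 reads in replicate 1 (euploid log phase, euploid day 4, Chr12 log phase, Chr12 day 4) and 0, 0, 0 and 1 in replicate 2. YOR072W-B held 11, 47, 7 and 7 in replicate 1 and 20, 0, 22 and 0 in replicate 2, in the same order. The authors removed reads from noncoding RNA before alignment, and whether reads of these genes remained was not tested. The other regions of this set were DFP2 (112 reads, 92.6% of the row, at 16 positions), a small membrane protein of the DUP240 family, and regions already given. YDR133C, which the R64 table does not list, held 1410 leader reads at 43 positions, 554 and 82 in euploid log phase, 12 and 9 at day 4 in the euploid, 348 and 77 in Chr12 log phase and 42 and 286 at day 4 in Chr12. MTC1, at 794 reads with 99.6% at −71 nt, was high in log phase (338 and 44, then 236 and 78) and had 97, 0, 1 and 0 reads at day 4.

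Many leaders were filled mainly at day 4. Of the 744 spread regions, 232 took 90% or more of their reads from the day 4 libraries and 69 took 90% or more from log phase. Day 4 libraries gave a median of 73.03% of the leader reads of these regions and 69.5% of the reads in the rest of their rows. Over all 911 regions pooled they gave 54.1% of leader reads and 64.1% of the rest, and over all rows 53.3% and 53.4%. The deepest library, euploid day 4 replicate 2, gave over 50% of the reads in 318 of the 911 regions, and without it 603 regions reached 10 reads. HBT1, which encodes a protein of polarized cells, had the most. Its leader held 187 and 1094 reads in the euploid at day 4 and 37 and 186 in Chr12, against 0 and 1 in euploid log phase and 1 and 1 in Chr12 log phase. They lay at 40 of the 54 positions. The whole row moved in the same way, and the leader was 2.16% of it at day 4 and 1.69% in log phase, where the rows held few reads. TMA10, a ribosome-associated protein, held 396 and 202 leader reads in the day 4 libraries of replicate 2, 1 and 12 in those of replicate 1 and 0 in log phase, which was 1.67% of its day 4 row. RGI2, a protein of respiratory growth, held 384 and 124, then 2 and 11, and 1 in all log phase libraries together. HSP26, a small heat shock protein, had 548 of its 566 reads in euploid day 4 replicate 2, which was 0.273% of the row.

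In a smaller group the leader took a large part of the row at day 4. Of 29 unshared regions with 20 or more leader reads in both day 4 libraries of replicate 2, a choice made after values were seen, 12 had 10% or more of their pooled day 4 row in the leader. The choice favours a high day 4 share. In 11 of the 29 (37.9%) both day 4 libraries of replicate 1, which did not enter the choice, were above every log phase library, against 39 of 255 other spread regions with 20 or more leader reads (15.3%) and 4.27% of all rows. These are counts with no test, and both of these libraries had a raised leader share of all reads. Of the 29, 6 held no leader read in log phase, so that any day 4 read put a library above. AAD10, TMA10, STF2, AMS1 and GRE1, counted in the 11, were among them. In TMA10 the leader held 1 of 1079 reads of the row in euploid day 4 replicate 1. PAN3 encodes a subunit of the Pan2-Pan3 poly(A) nuclease, which shortens mRNA tails. Its leader held 149 of 421 reads of the row in euploid and 201 of 285 in Chr12 day 4 replicate 2, and 2 of 11 and 59 of 79 in replicate 1. In log phase it held 2 of 81 and 0 of 16 in the euploid and 1 of 82 and 0 of 30 in Chr12. All 4 day 4 libraries were thus above all 4 log phase libraries. The pooled share was 51.6% at day 4 and 1.44% in log phase (95% Wilson intervals 48.2% to 55.1% and 0.489% to 4.13%). These intervals cover counting error only, and the day 4 libraries ranged from 18.2% to 74.7%. The reads of PAN3 began at 5 neighbouring positions with the highest at −56 nt. The edgeR fit did not call it, with an adjusted p of 1 in both strains and an unadjusted p of 0.1203 in the euploid and 0.00367 in Chr12.

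CTR2, the copper transporter of the vacuole, showed the same separation. Its leader held 21 of 23 and 254 of 524 reads in the euploid at day 4 and 8 of 24 and 229 of 348 in Chr12, against 9 of 80, 4 of 49, 9 of 43 and 3 of 28 in the log phase libraries of the euploid and then Chr12. The pooled share was 55.7% at day 4 and 12.5% in log phase, again with an adjusted p of 1 in both strains. These reads lay between −45 and −42 nt for the most part, with 272 of 537 at −44 nt. RIB3, an enzyme of riboflavin synthesis, had a leader share of 21.0% at day 4 and 2.32% in log phase, and all 4 day 4 libraries (25.0%, 16.7%, 18.2% and 29.2%) were above the log phase libraries (1.54% to 3.45%), although the 25.0% was 1 read of 4. BUL1, an adaptor of the ubiquitin ligase Rsp5, had 15.3% at day 4 and 3.39% in log phase. Its day 4 libraries (11.1% to 19.2%) were also all above those of log phase (0% to 5.10%). The same separation held in SEC5 and GAL11, with pooled day 4 shares of 6.26% and 3.88%. AAD10, TMA10, STF2, AMS1 and GRE1 also separated, with shares from 2.64% (AAD10) down to 0.0967% (GRE1). These held no leader read in pooled log phase rows of 23 to 333 reads, so any day 4 read put a library above. Their pooled day 4 shares lay below the upper Wilson limits of their log phase shares (1.14% to 14.3%). Over all rows the separation was counted for the day 4 libraries of replicate 1 only (4.27%).

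Other members of this group overlapped between phases in 1 or more libraries. RLM1, a transcription factor of the cell wall integrity pathway, had 30.6% at day 4 and 11.4% in log phase, but 0 of 17 reads in euploid day 4 replicate 1. MRP13, a protein of the mitochondrial ribosome, had 27.4% and 1.05%, with 62 and 53 of its 122 leader reads in the day 4 libraries of replicate 2, at −38 nt. EPO1, a protein of the cortical endoplasmic reticulum, had 17.2% and 0%, and its reads were 135 and 152 in day 4 replicate 2, 0 and 7 in day 4 replicate 1 and 0 in all log phase libraries. ATG5, needed for autophagosome formation, had 20.1% and 0.540%, with 21 and 25 leader reads in day 4 replicate 2 and 0 and 29 in replicate 1. DFP2 had 93.4% and 91.1%, so its leader was most of the row in both phases. YNR071C had 71.8% and 5.56%, with 0 leader reads in both day 4 libraries of replicate 1. RRT12 had 64.2% and 15.8%, with 0 of 2 and 1 of 12 reads there. RRT12 and MRP13 held 94.5% and 95.9% of their leader reads at 1 position. Between strains at day 4 the Chr12 library was above the euploid one in both replicates for PAN3, RLM1, EPO1, BUL1 and KGD4. These regions were chosen after values were seen, and the order was not counted over all rows. In replicate 1 it rested on few reads, such as 1 of 9 in the euploid and 4 of 29 in Chr12 for BUL1. RLM1 had 0 of 17 and 3 of 13, and KGD4 1 of 29 and 19 of 114. In CTR2, MRP13 and RIB3 it was above in replicate 2 and below in replicate 1, and in ATG5 below in replicate 2 and above in replicate 1. No difference between strains at day 4 was called for any row (smallest adjusted p = 1, edgeR).

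**Figure D3:**
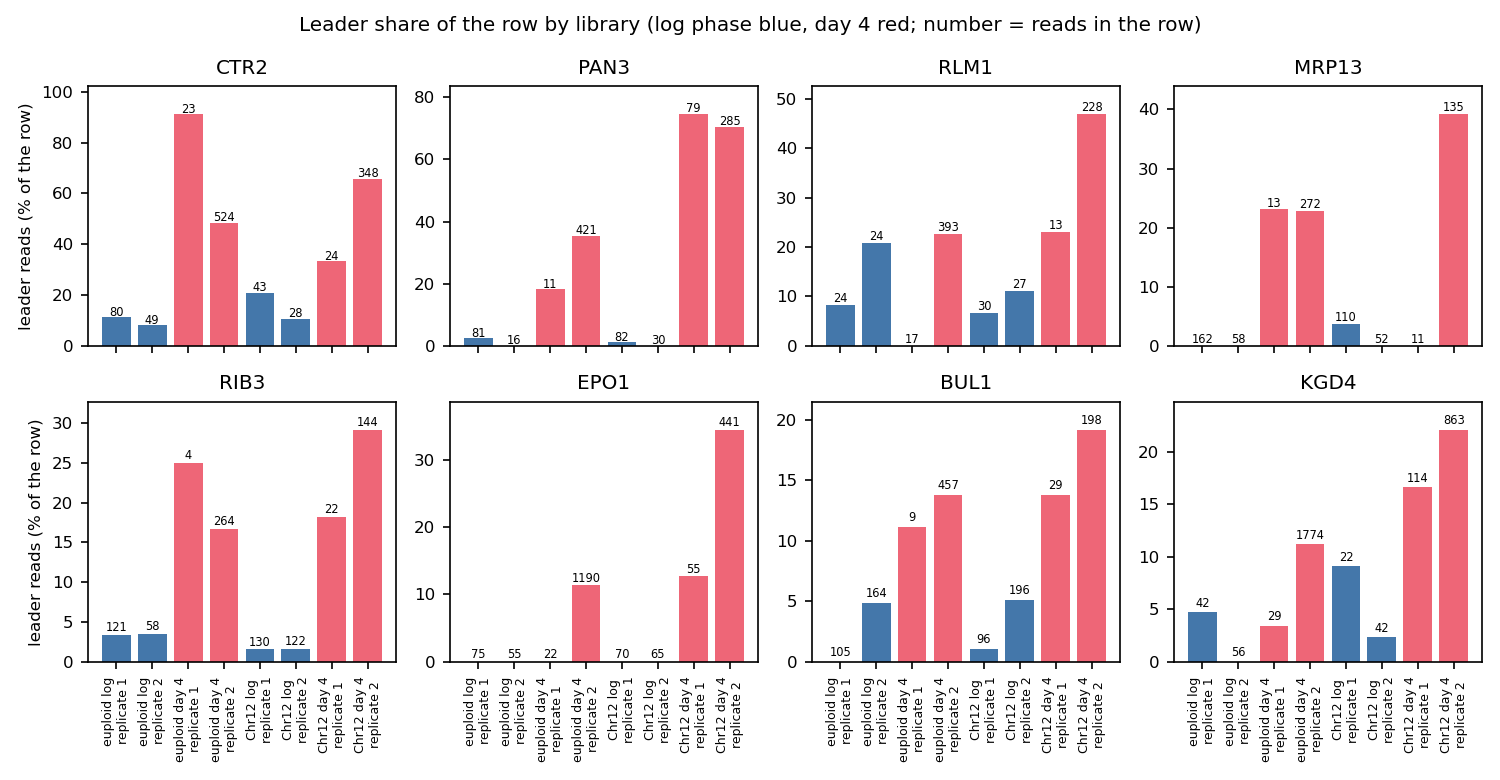
Leader reads as a percent of the row for 8 regions in each of the 8 libraries, with log phase in blue, day 4 in red and the number of reads in the row above each bar. In CTR2, PAN3, RIB3 and BUL1 all 4 day 4 libraries are above all 4 log phase libraries, on as few as 4 reads. Regions not drawn, among them SEC5 and GAL11, separate in the same way at smaller leader shares. Others, such as GRE1, do so with no leader read in log phase, where any day 4 read puts a library above.

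**Figure D4:**
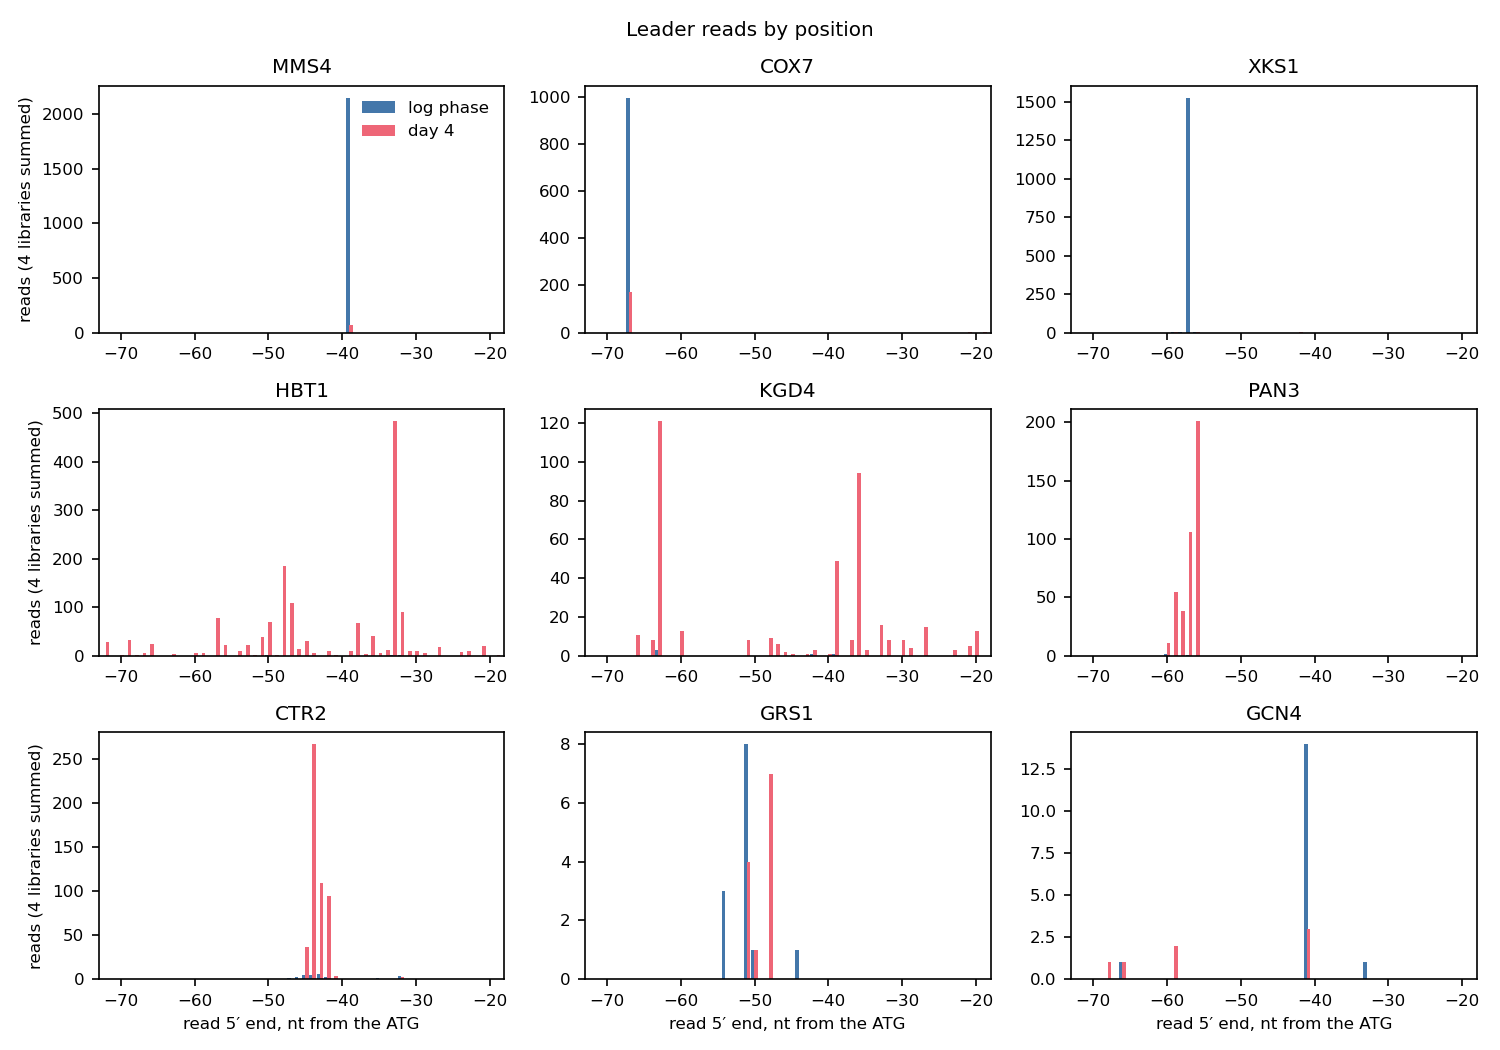
Reads by the position of their 5′ end, in nt from the ATG, summed over the 4 log phase (blue) and the 4 day 4 (red) libraries for 9 regions. MMS4, COX7 and XKS1 hold nearly all reads at 1 position, PAN3 and CTR2 at a few neighbouring positions, and HBT1 and KGD4 across the window.

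Ribosomes move by codons, so reads of a translated frame repeat every 3 nt. In the coding part of the spread regions between 53.6% and 70.5% of reads began in frame 0, the frame of the protein. In their leaders frame 0 held 25.0% to 42.9% of reads by library, and 31.3% to 36.1% of occupied positions. No frame thus dominated the leaders as a whole. Of 145 spread regions with 20 or more reads at 8 or more positions, 23 had 60% or more of their reads in frame 0, 18 in frame 1 and 20 in frame 2.

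KGD4 had the highest frame 0 share of these, at 358 of 415 leader reads (86.3%, 95% Wilson interval for counting error only 82.6% to 89.2%). It encodes a subunit of the mitochondrial α-ketoglutarate dehydrogenase, and in yeast it is known to start also at a non-AUG codon upstream of its AUG, which yields a longer variant of the protein. It was outside the lists used here and was singled out after its values were seen. The frame 0 reads were 168 of 199 in euploid day 4 replicate 2, 168 of 191 in Chr12 day 4 replicate 2 and 17 of 19 in Chr12 day 4 replicate 1. The highest positions were −63 nt with 124 reads, −36 nt with 94 and −39 nt with 50, and without the highest position frame 0 still held 80.4%. The leader was 14.7% of the row at day 4 and 3.09% in log phase, with 199 of 1774 and 191 of 863 reads in replicate 2 and 1 of 29 and 19 of 114 in replicate 1. HBT1 had 68.9% of its leader reads in frame 0 and AAD10, an aryl-alcohol dehydrogenase family member, 76.0%. In STF2, a protein linked to the ATP synthase inhibitor, the 76.3% in frame 0 fell to 18.2% without its highest position.

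**Figure D5:**
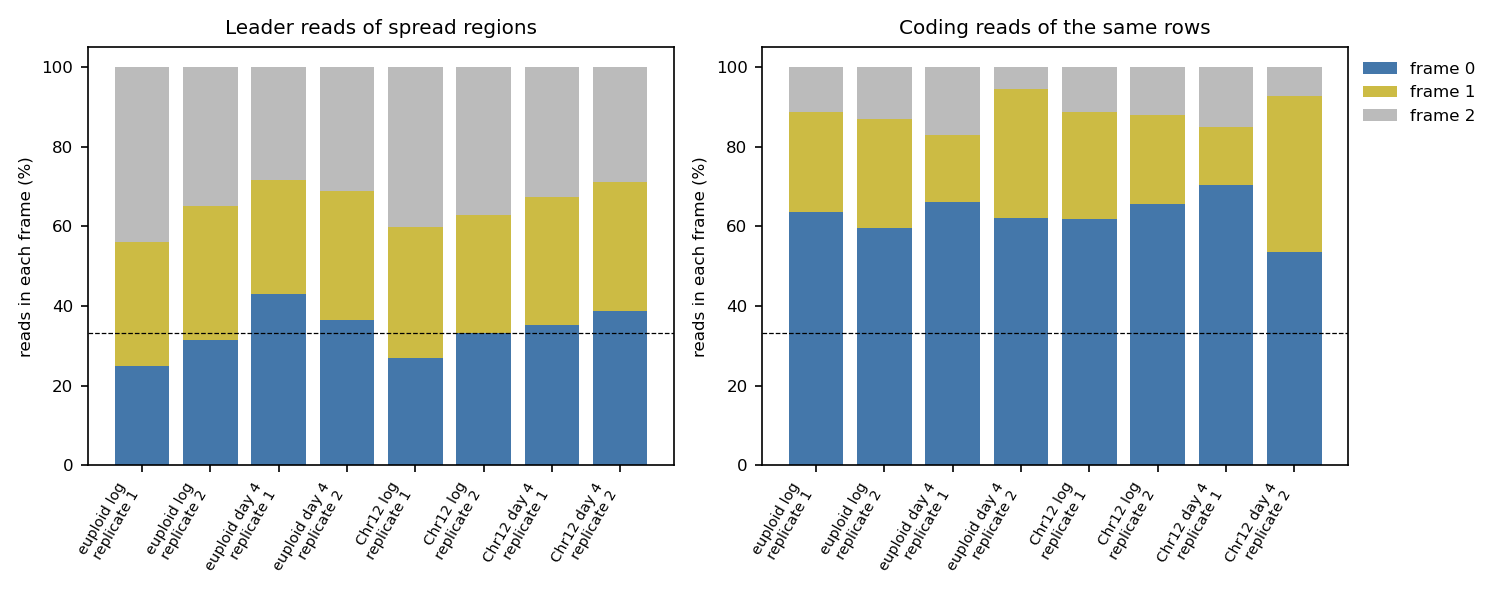
Percent of reads in each frame (frame 0 is the frame of the protein) in the leaders of the 744 spread regions (left) and in the coding part of the same rows (right) for each library. The dashed line is an equal share. Coding reads are mostly in frame 0 in all 8 libraries, whereas leader reads are near an equal share, with 25.0% to 42.9% in frame 0.

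Genes with known uORFs gave few reads in this window. As a share of the row the leaders of the 23 listed genes were not low. Their median was 0.529%, against 0.207% over all rows, with no test. The positions of the uORFs were not analysed, so a low count here does not tell whether a uORF was translated. Of 23 genes on the list 7 were regions (30.4%, against 13.9% of all rows), 14 held 1 to 6 leader reads and CAD1 and DCD1 held none. GCN4, the activator of amino acid synthesis genes, held 23 leader reads, 9.35% of its row. They were 7 and 0 in euploid log phase, 9 and 0 for Chr12 in that phase, and 3 and 0, then 4 and 0, at day 4 in the euploid and Chr12 (replicates 1 and 2), so all came from replicate 1. Of these 17 began at −41 nt, which puts the P site, the site of the decoded codon 12 nt into the read, at −29 nt. The uORFs known in GCN4 lie farther upstream than this window reaches. HAP4, an activator of respiratory genes, held 69 leader reads, 43 in euploid and 20 in Chr12 day 4 replicate 2 and 2 or fewer elsewhere, and 59 of them began at −72 nt, the edge of the window. ARV1, involved in sterol transport, held 18, of which 10 began at −42 nt, and 12.1% of its row. INO2, an activator of phospholipid genes, held 16, with 9 in euploid log phase replicate 2 and 12 in all at −65 nt. TIF4631, the translation factor eIF4G, held 12, of which 11 began at −34 nt. RPC11, a subunit of RNA polymerase III, held 11 at 8 positions. CPA1, whose uORF encodes the arginine attenuator peptide, held 2 and YAP1, an oxidative stress activator, held 1. Of the 21 rows tested, 0 were called in any comparison.

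Of the 4 genes known to start at a non-AUG codon, GRS1 and HYR1 were regions. GRS1 held 25 leader reads, 0.316% of its row, 6 and 2 in euploid log phase, 3 and 2 for Chr12 in that phase, 0 and 12 at day 4 in the euploid, and 0 in both Chr12 day 4 libraries. They began at 5 positions and 22 were in the frame of the protein, with 12 at −51 nt, 7 at −48 nt and 3 at −54 nt. HYR1, a glutathione peroxidase, held 24, of which 18 came from euploid day 4 replicate 2 and 13 were in frame 0. HFA1, the mitochondrial acetyl-CoA carboxylase, held 4 reads, all at −51 nt in euploid day 4 replicate 2 and in frame 0. ALA1 held 5 reads at 4 positions, 1 of them in frame 0.

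The remaining lists varied in how many of their genes were regions. Regions also held more reads in the rest of the row, a median of 1129 against 546 in other rows, and the part of this in the counts was not tested. Of respiration genes 18 of 28 were regions (64.3%, against 13.9% of all rows). The median leader share of the row was 0.278% in these regions, against 1.66% in all regions. Over all 28 respiration genes it was 0.180%, against 0.207% over all rows. Of glycolysis genes 9 of 18 were regions, with a median of 0.0378%, and among them TDH1, a glyceraldehyde-3-phosphate dehydrogenase, held 144 of its 175 reads in euploid day 4 replicate 2. Stationary phase and stress genes gave 11 of 30, among them HSP26 and GRE1, a hydrophilin with 175 leader reads at day 4. Ribosomal protein genes gave 30 of 137, translation factors 6 of 32 and amino acid synthesis 2 of 40, ARG4 and ILV5. One translation factor, YEF3 (elongation factor 3, on chromosome XII), had 84 of its 89 leader reads in Chr12 day 4 replicate 1, and 86 of the 89 began at −53 nt. No member of any list was called in any comparison (0 of 111 or fewer rows tested in each list).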

How the data were processed

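Ribosome-protected fragments were sequenced from 8 YPS1009 libraries (Ezra-seq). Values are the counts deposited by the authors, not normalized: reads were trimmed (CutAdapt), cleared of noncoding RNA and mapped with bowtie2 to the genome of YPS1009, and their 5′ ends were tallied per nt. No removal of duplicate reads is described. Groups and replicate numbers came from the sample labels.

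Leader reads (−72 to −19 nt) were set against all other reads of the row. A leader was called shared where another row held at least 90% of its reads at the same positions and counts. Ratios were fitted with edgeR 4.0.16 (a term per library, a leader term per group, Benjamini-Hochberg adjustment, FDR 0.05), with DESeq2 1.42.0 as an alternative. Shares were compared by exact permutation over libraries. The fits were tested on simulated data. Named regions were list members with known uORFs or non-AUG starts, the 10 unshared regions with most leader reads, and the 10 with the highest leader share among those with 100 or more reads; others are said to be chosen after values were seen. Members and lists were chosen with earlier results of these data known. The R64 gene table named 826 of the 911 regions, and none of its coordinates are printed. Upstream ATG codons and sequences were not analysed here. The values of 1 listed gene are not reported here.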

Additional observations from a re-analysis of the deposited data

Results flagged for a closer look

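The leader share of reads in euploid day 4 replicate 1 was 1.79%, far from the other 3 euploid libraries, the nearest of which was at 0.451%. The gap was 0.896 of the range of the 4 libraries, above Dixon's critical value for 4 samples. Among the 4 Chr12 libraries, day 4 replicate 1 stood apart in the same way, at 1.01% with the nearest library at 0.421% and a gap of 0.850 of the range. Both values depend on the counts used: with the second count tables they were 0.743% in the euploid and 0.684% in Chr12. The log phase libraries of replicate 1 were then at 0.206% and 0.188%. Each set of 4 libraries spans both phases, and 8 sets of 4 were examined, of which chance flags about 1 in 20.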

How the results depend on the processing

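Values that changed were these. The day 4 difference in the leader share (0.486 points) was 0.259 with the second count tables, 0.263 without the highest position and 0.183 to 0.680 without 1 library (0.183 without euploid day 4 replicate 1), with no exact p under the threshold. The chromosome XII difference in leader reads had an unadjusted exact p of 0.0286 (adjusted p = 0.0857 over 3 tests) with the second count tables (6.85 points), with the window from −60 nt (8.0001) and with each position counted once (2.45), and ranged from 5.35 to 9.33 without 1 library in turn. The strain difference in the leader share ranged from −0.351 to 0.158 points without 1 library, and was positive only without euploid day 4 replicate 1. For day 4 against log phase in Chr12, 1 row was called with the second count tables (XKS1, adjusted p = 0.0226) and 1 with a replicate block (YEF3, adjusted p = 0.0453), and 0 to 1 rows without 1 library (YEF3 without Chr12 day 4 replicate 2, adjusted p = 0.0420), all by edgeR. YEF3 rests on 84 reads of 1 library. The replicate block gave 0 calls in the other 4 comparisons, and the numbers are not stated to mark a shared culture or day. Over 103 regions replicate deviations correlated between the strains at r = 0.847 in log phase and 0.685 at day 4. Between groups of different phase r was 0.0912 to 0.367. The number of regions was 1791, 399 and 145 at 5, 20 and 50 or more leader reads, 328 with each position counted once, and 603 to 857 without 1 library (603 without euploid day 4 replicate 2). The cause was not tested. Leaving out piles, chosen after seeing the data, gave 0 calls in all 5 comparisons. Upstream ATG offsets were not run.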
